A study of Mus musculus with 30 samples.

Results

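The antidepressants tianeptine and desipramine were compared in the nucleus accumbens of the mouse: all 12 libraries of mice given tianeptine and all 8 libraries of mice given desipramine, 20 of the 30 libraries of the series. RNA was read by polyadenylated RNA sequencing of bilateral punches, with 1 male C57Bl/6J mouse per library. Surgery was a tibial spared nerve injury (SNI), used to model neuropathic pain, or a sham procedure. After 4 weeks they received intraperitoneal injections 2 times a day for 3 weeks. Sham tianeptine (n = 6) and SNI tianeptine (n = 6) mice received 30 mg/kg, and sham desipramine (n = 4) and SNI desipramine (n = 4) mice received 15 mg/kg. Sham saline (n = 5) and SNI saline (n = 5) mice give the undrugged level. Neither an age nor a genotype other than the strain is given in the sources used here. The doses differ, so the comparison is between 2 treatments as given and not between the molecules at a matched dose.

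The nucleus accumbens is the ventral part of the striatum. Most of its neurons are medium spiny neurons, which receive dopamine and carry opioid receptors. Tianeptine and desipramine both have a tricyclic ring system, with a side chain that ends in a carboxylic acid in tianeptine and in a secondary amine in desipramine. Tianeptine activates the mu-opioid receptor, and desipramine blocks the noradrenaline transporter. Ciart and Nr1d2, the genes with the smallest p values between the drugs, belong to the circadian clock. In this loop CLOCK and BMAL1 switch on genes with E-boxes in their promoters, the period, cryptochrome, CHRONO and DEC proteins repress the pair in return, and REV-ERB and ROR proteins compete over the BMAL1 gene. Its output runs through PAR bZIP factors such as DBP.

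Each gene's difference is the log2 fold change of tianeptine over desipramine with its standard error (SE), adjusted for surgery and for library set. Library names fall into 2 sets. Replicates 1 to 4 of every group form the first, and replicates 5 and 6 of tianeptine and 1 further replicate of each saline group form the second. The second set has no library from desipramine mice, so the difference between the drugs rests on 8 libraries against 8, and the other 4 tianeptine libraries add to the surgery term and the spread. Total counts were 26.4 to 37.7 M (mega) in the tianeptine libraries of the first set, 101.5 to 107.0 M in those of the second, and 24.8 to 35.0 M on desipramine. In the first set the numbers in the library names follow the groups: 1 to 4 are SNI tianeptine, 5 to 8 SNI desipramine, 13 to 16 sham tianeptine and 17 to 20 sham desipramine. What these numbers record is not stated, and it cannot be told apart from the group. The hour of tissue collection is not given in the sources used here.

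Markers of medium spiny neurons were present in every library, with a summed level over 18 markers of 7214 to 13143 counts per M (CPM) on tianeptine and 2247 to 14240 CPM on desipramine. A marker score, the mean of the members' centred log2 CPM, set SNI desipramine replicates 2 and 3 apart from the rest in medium spiny neurons. Their medium spiny neuron scores were -2.12 and -0.71, and their scores of septal, preoptic and hypothalamic neurons, which lie beside the accumbens, were 1.5 and 1.49. Other libraries were uneven in other scores. The choroid plexus and ependyma score reached 3.49 in a sham tianeptine library, and the septal score reached 1.2 in that group. Cortical excitatory neuron scores ran from -1.82 to 1.84 in sham tianeptine and from -1.03 to 1.9 in sham desipramine libraries. In bulk tissue, fewer cells of a type and less RNA per cell cannot be told apart.

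Of 23205 genes tested, 25 passed at an adjusted p under 0.05 with the edgeR quasi-likelihood test (0.108%), 18 higher (0.0776%) and 7 lower on tianeptine (0.0302%). Of the 18 higher genes, 5 are predicted models or pseudogenes. At an unadjusted p under 0.05 there were 2865 genes (12.3%), where 1160 would arise if no gene differed. The libraries of the drugs did not overlap at all for 14 genes, which is 0.0603% of those tested, 7 of them higher and 7 lower on tianeptine. DESeq2 called 325 genes, 164 higher and 161 lower, which include the 25, and limma-voom called 24. The count was 16 without sham desipramine replicate 1 and without sham tianeptine replicate 1, 43 without sham desipramine replicate 4, 42 without SNI desipramine replicate 4 and 82 without SNI tianeptine replicate 4. With scores of medium spiny, septal and cortical neurons in the fit, 248 genes passed and all 25 were among them. Without SNI desipramine replicates 2 and 3, 36 passed and 16 of the 25 were among them.

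**Figure D1:**
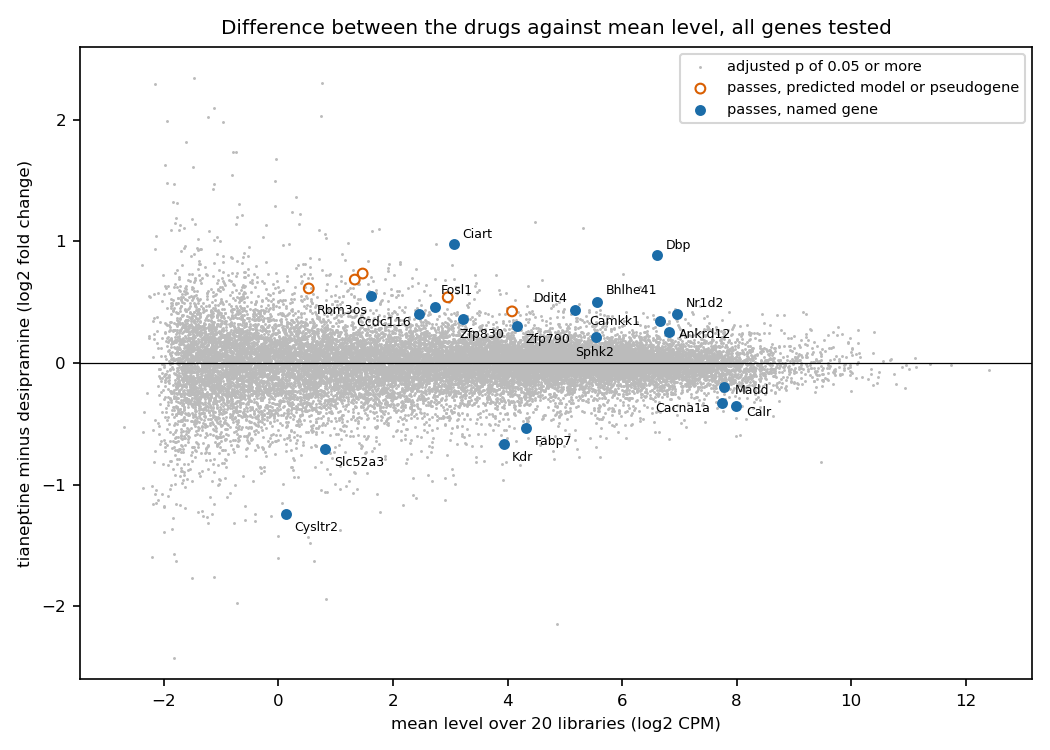
Each point is 1 of the 23205 genes tested, with its mean level over the 20 libraries (log2 CPM) on the x axis and the log2 fold change of tianeptine over desipramine on the y axis. Filled points are the 20 named genes that passed, from Ciart at 0.98 to Cysltr2 at -1.24, and open points the 5 predicted models or pseudogenes.

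Ciart, Nr1d2, Dbp and Bhlhe41 were the clock genes that passed, all higher on tianeptine, in 3 of the 11 clock repressors and 1 of the 3 clock output genes tested. None of the 7 clock activators passed in either direction, but at 0.108% of all genes tested most lists this short would hold none. Promoters of the passing clock genes are shown because these genes moved together, as RefSeq gives them for build GRCm38.p6. Each window runs from 250 bases before to 50 bases after the RefSeq start. That start differs from the GENCODE start in the gene positions given below, most for Dbp and Bhlhe41. Capitals mark matches to the E-box CACGTG and the ROR element AGGTCA, searched on both strands together with the D-box (TTATGTAA or TTACGTAA) and the cAMP response element (TGACGTCA).
Ciart, chr3:95882179-95882478, minus strand: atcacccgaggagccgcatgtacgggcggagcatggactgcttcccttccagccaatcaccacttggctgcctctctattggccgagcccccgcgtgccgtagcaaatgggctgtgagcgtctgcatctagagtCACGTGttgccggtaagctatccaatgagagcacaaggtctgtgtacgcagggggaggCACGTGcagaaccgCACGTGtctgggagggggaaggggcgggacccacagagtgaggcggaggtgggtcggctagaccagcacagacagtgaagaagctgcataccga
Nr1d2, chr14:18239057-18239356, minus strand: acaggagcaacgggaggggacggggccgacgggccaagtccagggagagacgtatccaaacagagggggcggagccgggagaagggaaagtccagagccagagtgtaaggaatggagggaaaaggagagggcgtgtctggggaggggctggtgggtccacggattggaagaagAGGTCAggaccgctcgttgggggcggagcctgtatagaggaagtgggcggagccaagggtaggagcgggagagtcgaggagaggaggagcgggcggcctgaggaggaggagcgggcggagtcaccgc
Dbp, chr7:45704997-45705296, plus strand: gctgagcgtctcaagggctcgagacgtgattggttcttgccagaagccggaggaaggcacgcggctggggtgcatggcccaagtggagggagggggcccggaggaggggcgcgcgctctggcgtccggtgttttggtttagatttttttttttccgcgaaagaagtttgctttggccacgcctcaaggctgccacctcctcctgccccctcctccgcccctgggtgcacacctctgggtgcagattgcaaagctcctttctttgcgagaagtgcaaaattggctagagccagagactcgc
Bhlhe41, chr6:145865371-145865670, minus strand: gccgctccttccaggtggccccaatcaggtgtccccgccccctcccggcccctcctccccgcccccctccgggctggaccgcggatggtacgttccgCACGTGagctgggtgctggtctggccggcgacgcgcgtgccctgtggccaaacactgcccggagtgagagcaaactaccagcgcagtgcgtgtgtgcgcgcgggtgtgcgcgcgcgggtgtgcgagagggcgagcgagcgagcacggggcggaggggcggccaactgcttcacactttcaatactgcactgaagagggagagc
Counted from the RefSeq start, the Ciart window holds 3 E-boxes, at 116, 58 and 44 bases before it. The Bhlhe41 window holds 1, at 153 bases before its RefSeq start, and lies closer to the GENCODE start. Nr1d2 has 1 ROR element, 77 bases before its RefSeq start. No match was found in the Dbp window, most of which lies after the GENCODE start of Dbp, so the bases before that start were largely not searched. Over 32851 promoters of the same 300 bases, 7.15% hold the E-box, 16.3% the ROR element, 1.06% the D-box and 1.79% the cAMP response element. A match describes the letters only.

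Ciart (chromosome 3, 95878503 to 95882251, mm10) encodes CHRONO, which acts against CLOCK and BMAL1, and had the smallest p. On desipramine it stood at 4.05, 5.57, 5.34 and 4.74 CPM in sham mice and at 6.37, 5.19, 6.38 and 5.15 CPM in SNI mice. On tianeptine its lowest, median and highest values were 9.73, 10.97 and 12.3 CPM in sham mice and 8.91, 9.41 and 11.9 CPM in SNI mice. Each tianeptine library thus lay above each desipramine library, with drug means of 10.4 ± 1.18 (SD, n = 12) and 5.35 ± 0.781 CPM (SD, n = 8). The saline mean lay between, at 7.81 ± 1.19 CPM (SD, n = 10). The log2 fold change was 0.98 ± 0.10 (SE, 95% interval 0.78 to 1.18, adjusted p = 0.000113), and it ran from 0.92 to 1.03 over 33 alternative fits, all past the threshold. Ciart and an antisense gene model that also passed share 3749 bases on opposite strands. The strand setting of the counting is not given in the sources used here, so whether their reads were kept apart is not known.

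Nr1d2 (chromosome 14, 18204054 to 18239127) encodes REV-ERB beta, a nuclear receptor that represses the BMAL1 gene. Desipramine libraries had 92.7, 97.3, 83.7 and 95.7 CPM in sham mice and 107, 106, 106 and 108 CPM in SNI mice. Tianeptine libraries ran from 120.5 CPM over a median of 135 to 169 CPM in sham mice, and from 125 over 141 to 167 CPM in SNI mice. The drug groups did not overlap, with a log2 fold change of 0.41 ± 0.05 (SE, adjusted p = 0.00227). The highest sham tianeptine values came from the second set. The lack of overlap holds by necessity in the first set alone. There, 18 genes in all (0.0776%) had all 8 tianeptine libraries above all 8 desipramine libraries.

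Bhlhe41 (chromosome 6, 145858243 to 145865558) encodes DEC2, an E-box binding repressor. Its desipramine values were 34.0, 44.0, 33.7 and 44.6 CPM in sham mice and 34.7, 35.2, 35.7 and 40.3 CPM in SNI mice. On tianeptine the lowest, median and highest were 44.4, 55.1 and 62.7 CPM in sham mice and 41.3, 56.2 and 59.4 CPM in SNI mice. The ranges overlapped, and the log2 fold change was 0.50 ± 0.09 (SE, adjusted p = 0.0255). The call for Bhlhe41 was lost, at an adjusted p of 0.0522 to 0.0673, without any 1 of 10 libraries: sham desipramine 1 or 3, SNI desipramine 1 or 3, sham tianeptine 1, 2 or 3, and SNI tianeptine 1, 2 or 3. A gene model on the opposite strand shares 1876 bases with it and passed too.

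Dbp (chromosome 7, 45705088 to 45710203) encodes a PAR bZIP activator driven directly by the clock. Its level was 56.0, 89.9, 55.2 and 86.1 CPM in sham desipramine mice and 70.0, 41.7, 56.6 and 77.2 CPM in SNI desipramine mice. On tianeptine it ran from 99.6 over a median of 127 to 133 CPM in sham mice and from 102 over 112 to 145 CPM in SNI mice. No library of one drug reached the range of the other. The log2 fold change was 0.89 ± 0.13 (SE, 95% interval 0.62 to 1.16, adjusted p = 0.0097). Desipramine values spread widely, at 66.6 ± 16.9 CPM (SD, n = 8), while those on tianeptine were at 119 ± 14.4 CPM (SD, n = 12) and those on saline at 109 ± 14.6 CPM (SD, n = 10).

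**Figure D2:**
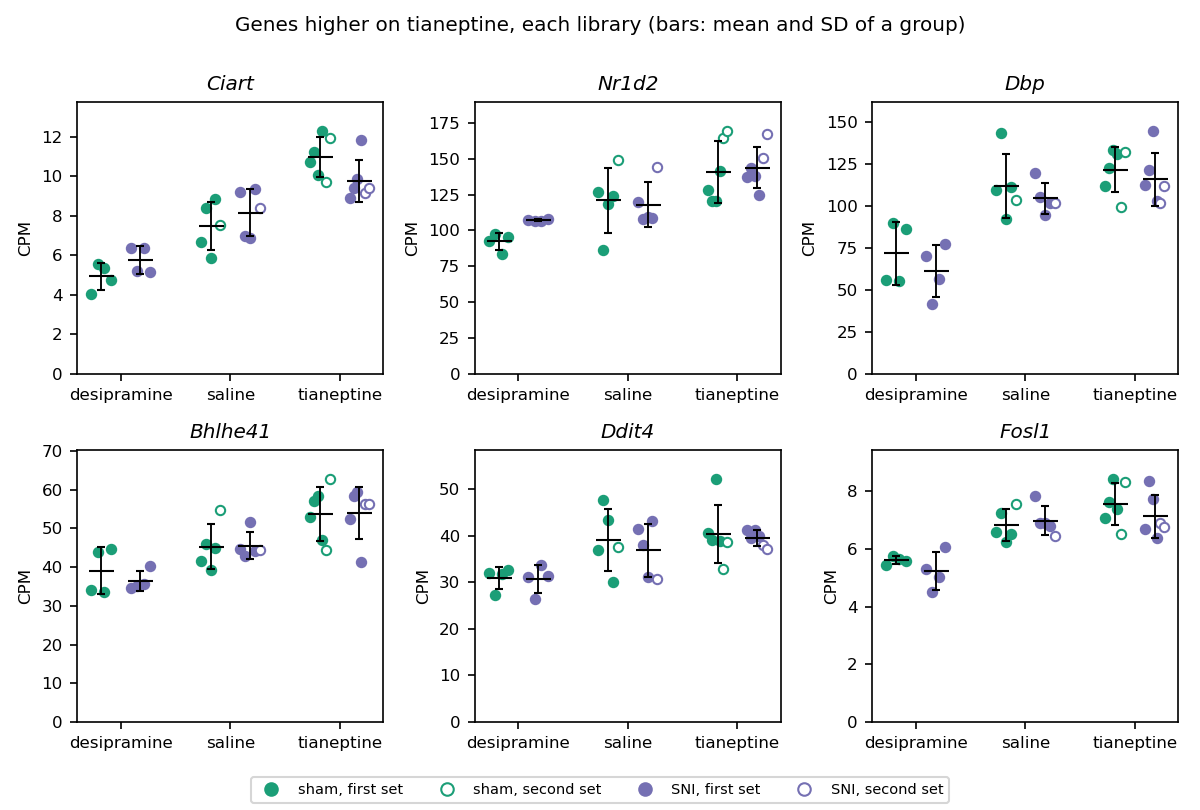
Levels (CPM, y axis) of 6 genes higher on tianeptine in each library, by drug on the x axis and by surgery (colour) and library set (filled or open), with bars for the mean and SD of a group. For Ciart, Nr1d2, Dbp and Fosl1 all 12 tianeptine points sit above all 8 desipramine points, and for Bhlhe41 and Ddit4 the ranges touch or overlap.

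The other clock genes did not pass. Among repressors, the period genes Per1, Per2 and Per3 stood at 0.44 ± 0.15, 0.21 ± 0.11 and 0.39 ± 0.08 (log2 fold change ± SE), with an adjusted p of 0.234, 0.459 and 0.0562. The cryptochrome genes Cry1 and Cry2 were at 0.13 ± 0.11 and 0.15 ± 0.07. Nr1d1, which encodes REV-ERB alpha, was at 0.18 ± 0.06, and Bhlhe40, which encodes DEC1, at 0.27 ± 0.06 (adjusted p = 0.0952). Nfil3, whose product opposes DBP at D-boxes, was the only repressor with a negative value, at -0.22 ± 0.11. The median over the 11 repressors was 0.27, against -0.00 over all genes tested. The output genes Tef and Hlf, which encode the other PAR bZIP factors, were at 0.39 ± 0.10 (adjusted p = 0.106) and 0.33 ± 0.13 (adjusted p = 0.308). Of the activators, Arntl, which encodes BMAL1, was at -0.45 ± 0.12 (adjusted p = 0.110), with 36.5 to 47.2 CPM on tianeptine and 34.8 to 71.9 CPM on desipramine. Arntl2, a paralog of Arntl, was at -0.05 ± 0.14. Clock was at -0.02 ± 0.05 and its paralog Npas2 at 0.03 ± 0.28, and the ROR genes Rora and Rorb were at -0.21 ± 0.11 and -0.31 ± 0.14.

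Set beside the saline libraries, which both of the next contrasts share, Ciart was at 0.41 ± 0.08 on tianeptine (log2 fold change ± SE, adjusted p = 0.577) and at -0.56 ± 0.09 on desipramine (adjusted p = 0.0191). Dbp was at 0.15 ± 0.10 and -0.73 ± 0.12 (adjusted p = 0.970 and 0.0140). Nr1d2 was at 0.21 ± 0.05 and -0.19 ± 0.06 (adjusted p = 0.970 and 0.233), and Bhlhe41 at 0.24 ± 0.07 and -0.25 ± 0.08 (adjusted p = 0.970 and 0.242). Against saline, over 23736 genes in a fit of all 30 libraries, edgeR passed 0 genes on tianeptine, where 1126 had an unadjusted p under 0.05 (4.74%), and DESeq2 passed 1. On desipramine 7 passed (0.0295%), 132 by DESeq2 and 0 by edgeR in replicates 1 to 4 alone.

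**Figure D3:**
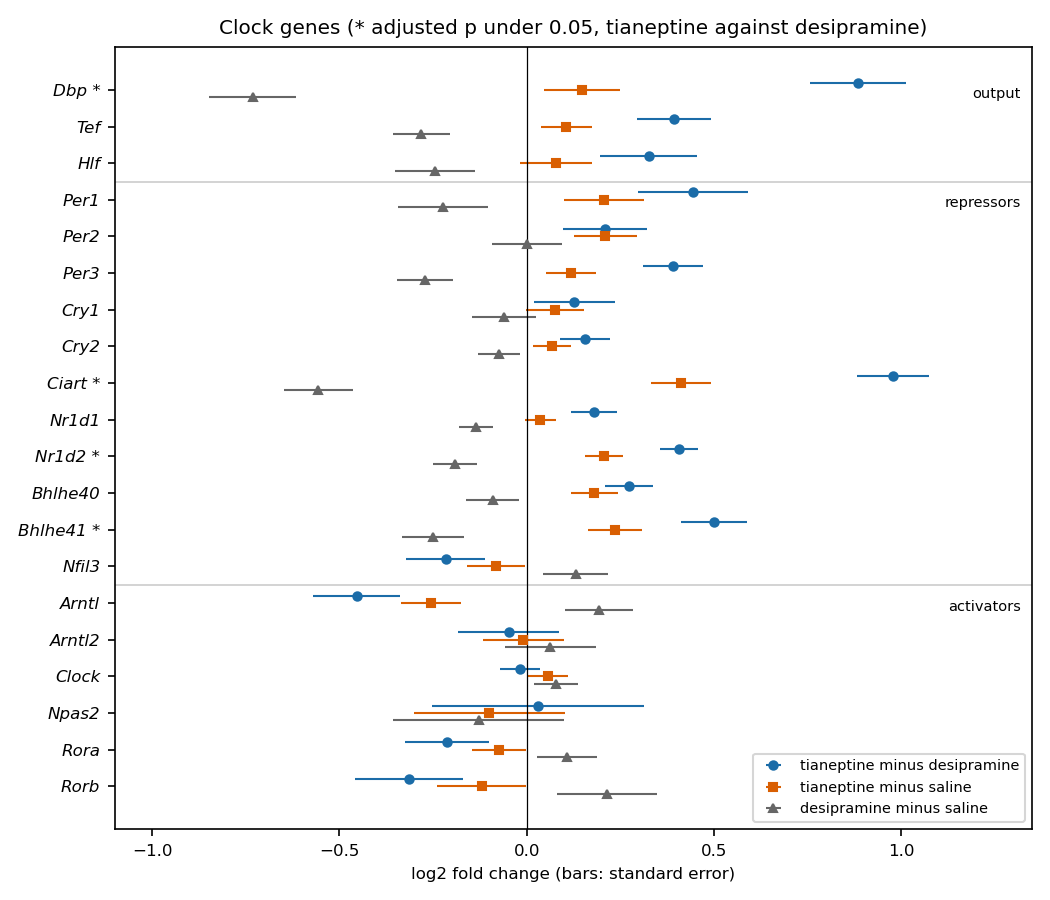
Log2 fold change (x axis, bars for the SE) of the clock genes named in the text in the comparison of the drugs and of each drug with saline. An asterisk marks the 4 genes that passed between the drugs, and the desipramine points of Dbp and Ciart lie farthest to the left of 0.

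Of the higher genes outside the clock lists, Ddit4 had the smallest p. It (chromosome 10, 59949669 to 59951834) encodes REDD1, an inhibitor of the mTORC1 kinase that glucocorticoids induce. It had 32.0, 27.3, 31.9 and 32.6 CPM in sham desipramine mice and 31.2, 26.5, 33.7 and 31.3 CPM in SNI desipramine mice. On tianeptine it ran from 32.9 over 39.0 to 52.1 CPM in sham mice and from 37.1 over 39.8 to 41.3 CPM in SNI mice. Only the lowest sham tianeptine library, from the second set, fell within the desipramine range. The log2 fold change was 0.43 ± 0.06 (SE, adjusted p = 0.0105). Over all genes tested 0.108% passed and 50% were higher. These shares stand beside the lists of Ddit4, Fosl1, Calr, Kdr and Cacna1a. Ddit4 was the only passing gene of 18 glucocorticoid targets, a list with 16 members higher and a median of 0.19. Others of the list did not pass, such as the kinase gene Sgk1 at 0.35 ± 0.14 and the glucocorticoid receptor co-chaperone gene Fkbp5 at 0.24 ± 0.13.

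Fosl1 (chromosome 19, 5447547 to 5455946) encodes FRA-1, a member of the AP-1 family of activity-induced factors. Desipramine libraries had 5.46, 5.76, 5.67 and 5.58 CPM in sham mice and 5.32, 4.50, 5.03 and 6.07 CPM in SNI mice. Tianeptine libraries ran from 6.53 over 7.52 to 8.42 CPM in sham mice and from 6.39 over 6.82 to 8.35 CPM in SNI mice. The groups did not overlap, and the log2 fold change was 0.46 ± 0.07 (SE, adjusted p = 0.0138). Ccdc85b, on the opposite strand, shares 2767 bases with Fosl1 and was at 0.15 ± 0.06, and whether their reads were kept apart is not known. Fosl1 was the only passing gene of 30 immediate early genes tested, of which 22 were higher. Their median was 0.22, and Fos itself was at 0.73 ± 0.43 (adjusted p = 0.510). The median was -0.14 in sham mice, 0.51 in SNI mice and 0.01 without SNI desipramine replicates 2 and 3, the libraries with low medium spiny neuron scores, whose part in the result was not tested further.

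The remaining higher genes were of several kinds. Camkk1, a kinase upstream of the calmodulin kinases, was at 0.34 ± 0.05, Ankrd12, a nuclear ankyrin-repeat protein gene, at 0.26 ± 0.04 and the zinc finger gene Zfp790 at 0.30 ± 0.05 (log2 fold change ± SE, each with an adjusted p of 0.0138). The Ankrd12 call was lost in the fit of all 30 libraries (adjusted p = 0.0610). For each of the 3 genes the range on tianeptine, 92.4 to 124 CPM for Camkk1, 104 to 144 CPM for Ankrd12 and 16.8 to 21.2 CPM for Zfp790, overlapped that on desipramine, 81.8 to 105 CPM, 88.4 to 105 CPM and 14.7 to 17.1 CPM. Rbm3os, an antisense transcript at the gene of the cold-inducible RNA-binding protein RBM3, was at 0.56 ± 0.09 (adjusted p = 0.0138), and Rbm3 itself at 0.35 ± 0.07 (adjusted p = 0.0540). They share 452 bases on opposite strands. Without the term for library set Rbm3os was at 0.43 (adjusted p = 0.0839).

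3 further genes that passed lay outside the rule for named genes and are named after their values were seen. Ccdc116 was at 0.40 ± 0.07 (adjusted p = 0.0188), and it shares 2609 bases with Ydjc, which was at 0.04 ± 0.03. The sphingosine kinase gene Sphk2 was at 0.21 ± 0.04 (adjusted p = 0.0257). It shares 737 bases on opposite strands with Dbp and 2546 with Rpl18, so the same limit holds for it and for Dbp. The zinc finger gene Zfp830 was at 0.36 ± 0.06 (adjusted p = 0.0265). The calls depended on single libraries. Ccdc116 lost its call without sham desipramine 1 or 2, sham tianeptine 1 or SNI tianeptine 3 (adjusted p = 0.0502 to 0.0567). Sphk2 lost it without sham desipramine 1 or 3, SNI desipramine 1 or 3, sham tianeptine 1, 2, 3 or 4, or SNI tianeptine 2 or 3 (0.0512 to 0.0694). Zfp830 lost it without sham desipramine 1, 2 or 3, SNI desipramine 1, 2 or 3, sham tianeptine 1, 2 or 3, or SNI tianeptine 2 (0.0522 to 0.0713). All 3 calls were also lost in replicates 1 to 4 alone (adjusted p = 0.0601) and without the term for library set (0.0645 for Ccdc116, 0.0832 for Sphk2 and 0.195 for Zfp830).

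Of the lower genes, Calr (chromosome 8, 84841850 to 84846934) had the smallest p. It encodes calreticulin, a calcium-binding chaperone of the endoplasmic reticulum. Its desipramine values were 298, 341, 303 and 282 CPM in sham mice and 294, 299, 288 and 296 CPM in SNI mice. On tianeptine it ran from 195 over 224 to 243 CPM in sham mice and from 207 over 220.1 to 258 CPM in SNI mice. No tianeptine library reached the desipramine range. The log2 fold change was -0.35 ± 0.05 (SE, adjusted p = 0.00786), and Calr passed in all 33 alternatives. Saline libraries were at 255 ± 26.7 CPM (SD, n = 10). Calr was the only passing gene of 19 chaperones of the endoplasmic reticulum, of which 16 were lower, with a median of -0.17. The others named here did not pass: the chaperone cofactor Sdf2l1 at -0.53 ± 0.11 (adjusted p = 0.0540), the disulfide isomerase Pdia6 at -0.26 ± 0.06 (adjusted p = 0.0765) and the central chaperone Hspa5, or BiP, at -0.32 ± 0.08 (adjusted p = 0.120).

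Kdr (chromosome 5, 75932827 to 75978458) encodes the main VEGF receptor of blood vessel endothelium. It had 20.1, 26.6, 19.2 and 17.4 CPM in sham desipramine mice and 18.6, 20.7, 16.7 and 16.6 CPM in SNI desipramine mice. On tianeptine it ran from 9.68 over 12.1 to 15.5 CPM in sham mice and from 10.6 over 12.6 to 14.4 CPM in SNI mice. The drug groups did not overlap, and the log2 fold change was -0.67 ± 0.10 (SE, adjusted p = 0.0123). Saline libraries ran from 9.02 to 20.2 CPM and overlapped both ranges. Of 18 endothelial markers 16 were lower, with a median of -0.22, and Kdr was the only member to pass. The tight junction gene Cldn5 was at -0.60 ± 0.13 (adjusted p = 0.0703), the angiopoietin receptor gene Tek at -0.26 ± 0.06 (adjusted p = 0.0945) and Pecam1, an adhesion gene, at -0.33 ± 0.10 (adjusted p = 0.186). The summed level of the 18 markers was 329 to 536 CPM on tianeptine and 436 to 578 CPM on desipramine, with no marker at 0. Whether the amount of vessel in the punch had a part in the Kdr result was not tested.

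Of the genes that passed, Cysltr2 (chromosome 14, 73025603 to 73049114), which encodes a receptor for cysteinyl leukotrienes, had the largest fold. It stood at 1.26, 2.19, 0.972 and 1.09 CPM in sham desipramine mice and at 1.94, 2.58, 1.71 and 1.59 CPM in SNI desipramine mice. On tianeptine it ran from 0.554 over 0.640 to 1.0003 CPM in sham mice and from 0.497 over 0.708 to 0.925 CPM in SNI mice. Only 1 sham desipramine library, the lowest, fell within the tianeptine range. The log2 fold change was -1.24 ± 0.20 (SE, 95% interval -1.67 to -0.82, adjusted p = 0.0138).

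Fabp7 (chromosome 10, 57784881 to 57788450), the brain fatty acid-binding protein of astrocytes and their precursors, had 25.7, 20.2, 29.9 and 18.9 CPM in sham desipramine mice and 26.2, 24.7, 26.1 and 24.7 CPM in SNI desipramine mice. Tianeptine libraries ran from 13.7 over 17.4 to 18.3 CPM in sham mice and from 14.1 over 17.6 to 20.2 CPM in SNI mice. The ranges overlapped, and the log2 fold change was -0.54 ± 0.09 (SE, adjusted p = 0.0188). Fabp7 lost its call without sham desipramine 1 (adjusted p = 0.0523) or SNI tianeptine 3 (adjusted p = 0.0506), and in replicates 1 to 4 alone (adjusted p = 0.0701). Of 15 astrocyte markers 13 were lower (median -0.14), but the median was 0.05 in sham mice, -0.35 in SNI mice and -0.01 without SNI desipramine replicates 2 and 3. Their summed level was 3260 to 4188 CPM on tianeptine and 3879 to 4421 CPM on desipramine, with none at 0. Their part in the Fabp7 result was not tested.

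Cacna1a, the pore subunit of the P/Q-type calcium channel that drives transmitter release, was at -0.33 ± 0.06 (log2 fold change ± SE, adjusted p = 0.0235). It was the only passing gene of 23 sodium and calcium channel subunits, of which 16 were lower with a median of -0.04, or -0.12 without SNI desipramine replicates 2 and 3. Its levels were 227, 263, 235 and 238 CPM in sham desipramine mice, 241, 241, 227 and 243 CPM in SNI desipramine mice and 155 to 248 CPM on tianeptine, so that the drugs overlapped. The Cacna1a call was lost without sham desipramine 2, SNI desipramine 1, sham tianeptine 1 or 2, or SNI tianeptine 1 or 3 (adjusted p = 0.0516 to 0.0654). In replicates 1 to 4 alone its adjusted p was 0.0601, and without the term for library set 0.0880.

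Slc52a3, a riboflavin transporter gene, was at -0.71 ± 0.13 (adjusted p = 0.0301), with 0.960 to 2.13 CPM on tianeptine and 1.78 to 2.77 CPM on desipramine. Madd, an exchange factor for the vesicle protein RAB3, was at -0.20 ± 0.04 (adjusted p = 0.0363), with 198 to 224 CPM on tianeptine and 224 to 259 CPM on desipramine. Both calls were weakly held. Slc52a3 lost its call without sham desipramine 1 or 2, SNI desipramine 1 or 2, sham tianeptine 1, 2 or 3, or SNI tianeptine 1 or 3 (adjusted p = 0.0525 to 0.0738), and in the fit of all 30 libraries (0.157). Madd lost it without sham desipramine 1, 2 or 3, SNI desipramine 1, 2 or 3, sham tianeptine 1 to 4, or SNI tianeptine 1, 2, 3, 5 or 6 (adjusted p = 0.0522 to 0.0879). Next in order and not passing was Spred3, an inhibitor of RAS-ERK signalling, at -0.35 ± 0.07 (adjusted p = 0.0536), with 47.3 to 66.0 CPM on tianeptine and 66.2 to 85.3 CPM on desipramine.

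**Figure D4:**
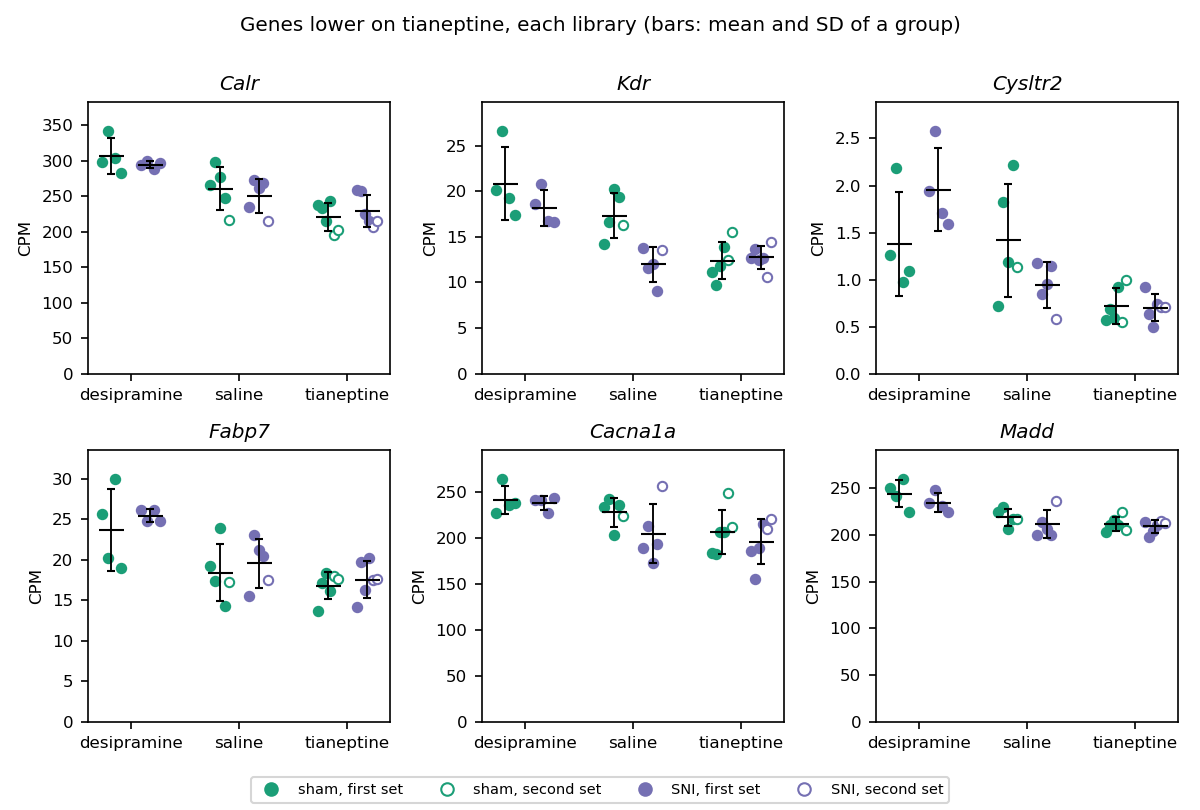
Levels (CPM, y axis) of 6 genes lower on tianeptine in each library, by drug on the x axis and by surgery (colour) and library set (filled or open), with bars for the mean and SD of a group. All 12 tianeptine points of Calr and Kdr sit below all 8 desipramine points, and the saline points of Kdr overlap both ranges.

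The other genes of the ERK feedback list did not pass. Of 18 tested, 7 were higher and 11 lower, with a median of -0.07, or -0.16 without SNI desipramine replicates 2 and 3. Spred2, a relative of Spred3, was at -0.18 ± 0.05 (adjusted p = 0.127), the ETS factor gene Etv4 at -0.32 ± 0.08 (adjusted p = 0.0968) and the phosphatase gene Dusp1 at 0.38 ± 0.15 (adjusted p = 0.305). Vgf, a neuropeptide precursor induced by neurotrophins, was at -0.35 ± 0.08 (adjusted p = 0.0945), and Bdnf at -1.11 ± 0.67 (95% interval -2.52 to 0.31).

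No gene of the drugs' own target systems passed. Of all genes tested 0.108% passed, so most lists of this size would hold none. Oprm1, the mu-opioid receptor gene, was at -0.11 ± 0.10 (95% interval -0.32 to 0.10, adjusted p = 0.669). The opioid peptide genes Penk and Pdyn were at 0.23 ± 0.25 and 0.24 ± 0.34, with intervals from -0.28 to 0.75 and from -0.48 to 0.96. Of 27 opioid system genes 14 were higher and 13 lower, with a median of 0.01, or -0.10 without SNI desipramine replicates 2 and 3. The adrenergic receptor genes Adra2a and Adrb1 were at -0.32 ± 0.46 (interval -1.29 to 0.65) and 0.06 ± 0.11 (interval -0.18 to 0.30). Of 20 noradrenaline and monoamine genes tested, 11 were higher and 9 lower, with a median of 0.01. Slc6a2, the transporter that desipramine blocks, had 16 counts over the 20 libraries and was not tested. The AMPA receptor gene Gria1 was at -0.00 ± 0.08, with an interval from -0.17 to 0.16.

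Medians of dopamine and medium spiny neuron genes differed with and without the 2 libraries that stood apart. Those libraries were picked by their low scores of the same 18 medium spiny neuron markers. A lower marker median without them was thus largely set in advance and is no separate result. The dopamine list shares members with the markers, Ppp1r1b and Adcy5 among them. Of 16 dopamine receptor and signalling genes 15 were higher on tianeptine, with a median of 0.21, and of 18 medium spiny neuron markers all 18 were higher, with a median of 0.22, but no member passed. Drd1 was at 0.38 ± 0.33 (95% interval -0.31 to 1.08) and Drd2 at 0.27 ± 0.30 (interval -0.36 to 0.90). Without SNI desipramine replicates 2 and 3 the medians were -0.02 and -0.05. In sham mice, where those libraries have no place, they were -0.05 and -0.07. Cortical excitatory neuron markers did not level out in the same way. Of 15 markers 12 were lower, no member passed, and the median was -0.18. That median was -0.67 without SNI desipramine replicates 2 and 3, -1.42 in sham mice and 0.44 in SNI mice.

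For the clock genes the same omission left the repressor median at 0.27 and brought the output median from 0.39 to 0.27. Chaperones of the endoplasmic reticulum went from -0.17 to -0.12 and endothelial markers from -0.22 to -0.21. Ciart, Nr1d2, Dbp, Ddit4, Calr, Kdr and Cysltr2 passed with and without these libraries. Bhlhe41, Sphk2, Zfp830, Fabp7, Cacna1a, Madd and Slc52a3 passed with them and not without them. That fit holds fewer desipramine libraries, and each of these calls was also lost without some single other library. None of these genes changed sign in the 33 alternatives.

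Several other lists had most members on one side and no passing member. All 5 red blood cell markers tested were lower (median -0.47, or -0.38 without SNI desipramine replicates 2 and 3). Of 9 peripheral immune cell markers 8 were lower, with a median of -0.34, which was -0.85 in sham and 0.07 in SNI mice. Of 13 mural cell markers 10 were lower, with a median of -0.17, which was -0.33 in sham and 0.03 in SNI mice. Of 80 cytosolic ribosomal protein genes 75 were higher (median 0.07). All 10 oligodendrocyte precursor markers were lower (median -0.17), Cspg4 at -0.27 ± 0.07 (adjusted p = 0.106) among them, and their median was -0.10 without SNI desipramine replicates 2 and 3. All 10 nuclear long noncoding RNAs were lower (median -0.11), with Malat1 at -0.82 ± 0.20 (adjusted p = 0.0968). Of 24 cholesterol synthesis genes 21 were lower, and their median of -0.12 was -0.01 with the neuron marker scores in the fit and -0.06 without those libraries. Over all genes tested, 11602 were higher and 11603 lower.

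**Figure D5:**
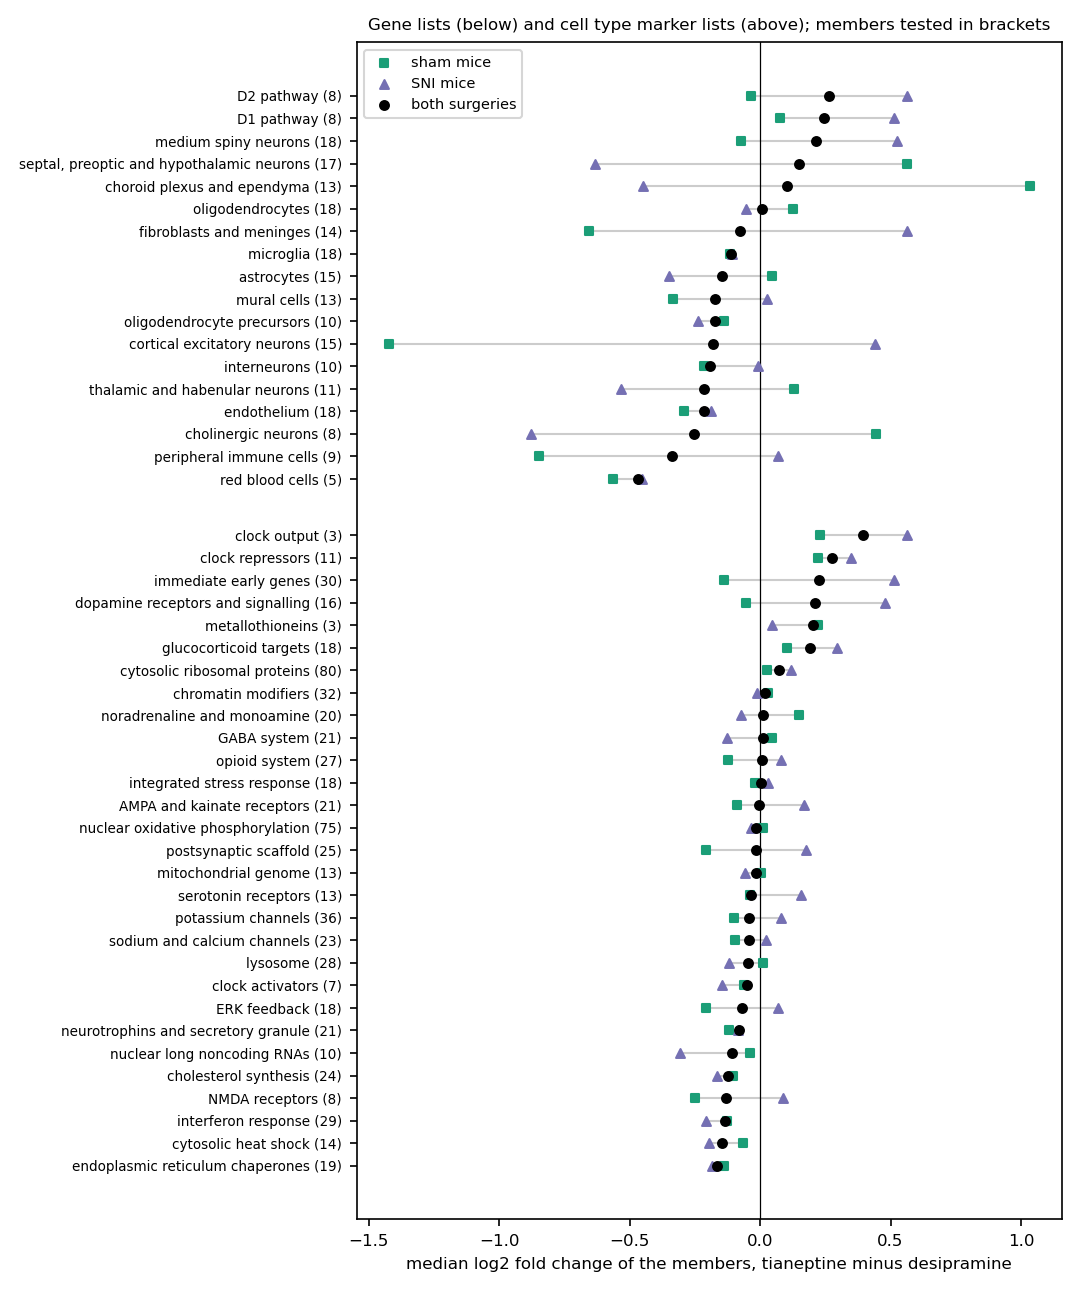
Median log2 fold change of tianeptine over desipramine (x axis) for each gene list and cell type marker list (y axis), in sham mice, in SNI mice and in the pooled fit. Clock output and clock repressors lie to the right of 0 in both surgeries, while medium spiny neuron markers are at -0.07 in sham and 0.52 in SNI mice.

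Taken for each surgery from 1 fit of all 20 libraries, the drug difference passed for 9 genes in sham mice (0.0388%) and 1 in SNI mice (0.00431%). The spread was estimated over both surgeries together. Ciart was the gene that passed in each, at 1.18 ± 0.12 in sham (log2 fold change ± SE, adjusted p = 0.000156) and 0.78 ± 0.11 in SNI mice (adjusted p = 0.0488). In sham mice Nr1d2, Calr and Kdr also passed, at 0.50 ± 0.06, -0.41 ± 0.06 and -0.79 ± 0.13, against 0.32 ± 0.06, -0.29 ± 0.06 and -0.55 ± 0.13 in SNI mice. For none of these 4 genes did the difference between the surgeries pass, with an adjusted p of 0.189 for Ciart, 0.276 for Nr1d2, 0.524 for Calr and 0.514 for Kdr.

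Over all genes that test of the difference between surgeries gave 0 with edgeR and 0 with limma-voom, but 4275 genes at an unadjusted p under 0.05 (18.4%) and 550 with DESeq2. Without SNI desipramine replicate 4 edgeR gave 3159. The smallest p belonged to Blm, a DNA helicase gene, which was at 0.44 ± 0.06 in sham and -0.06 ± 0.06 in SNI mice (adjusted p of the difference = 0.143). Its sham desipramine libraries, at 8.99 to 9.33 CPM, lay below all of the other drug groups, which ran from 10.6 to 13.4 CPM. Atp6v0a4, a subunit gene of the vacuolar proton pump, was at -0.44 ± 0.10 in sham and 0.25 ± 0.10 in SNI mice, and the sialyltransferase gene St3gal2 at -0.25 ± 0.06 and 0.19 ± 0.06, with the same adjusted p. Ccdc192 was at 0.53 ± 0.22 and -0.91 ± 0.22, again at 0.143.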

How the data were processed

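RNA of 30 mice was sequenced from a stranded library kit, 1 library per mouse. Per the submitters' processing notes, the authors trimmed reads with Trim Galore, aligned them to mm10 with HISAT2, handled them with SAMtools and counted them per gene with featureCounts. For versions, strand setting and annotation release, nothing is given in the sources used here. The authors deposited a table of whole-number counts for 55401 gene IDs, which is the input here, and a table of FPKM values that was not used. Symbols and positions came from GENCODE M21 (mm10), with 54349 IDs matched exactly, 792 without the version number and 260 unmatched (0.051% of counts). No sample column was unused, and no 2 libraries of a group were near copies (smallest chi-square per degree of freedom 7.51).

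Group membership follows the sample titles. The test was edgeR 4.0.16 (R 4.3.3, limma 3.58.1): genes kept by filterByExpr (23205, with 99.9% of counts), libraries scaled by TMM, and a robust quasi-likelihood fit with drug, surgery and library set over the 20 drug libraries. Residual degrees of freedom were 16, and the common biological coefficient of variation was 19.3%. P values were 2-sided, with Benjamini-Hochberg adjustment across every gene tested and a threshold of 0.05. Surgeries were compared with 1 coefficient per group, and the drugs with saline in a fit of all 30 libraries. CPM are counts per M (mega) counts after TMM, and list scores are means of centred log2 CPM with a prior count of 2. The fits were also run on counts simulated from the fitted model. These counts hold no libraries with shifted marker scores, so that run does not test how the fits handle such libraries. Each alternative, DESeq2 1.42.0 among them, was set up to change 1 choice, but some changed more with it. DESeq2 used its own library scaling. The fit of all 30 libraries also changed the genes kept and used 1 coefficient per group. Fits that left out libraries kept genes anew.

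Genes were named by rule: among those that passed, in each direction at most 8 of smallest p and 5 of largest fold at a mean log2 CPM of at least 1, passing members of lists, all clock and ERK feedback genes, fixed drug-target genes, up to 2 members of each list with none passing, and the 4 smallest p of the interaction. Other genes, among them members given beside a passing gene, were named after their values were seen. Predicted models were counted only, and 1 clock activator that was tested is not reported here. The members and lists were chosen with earlier results of these data known.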

Additional observations from a re-analysis of the deposited data

Results flagged for a closer look

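Within each drug group, 152 sets of values (20 genes and 18 marker scores in 4 groups) were searched for a library far from the rest, a search that flags about 1 in 20 sets by chance, and 4 were found. Ciart stood at 11.9 CPM in SNI tianeptine replicate 4, with the nearest library of the group at 9.86 CPM. Ddit4 was at 27.3 CPM in sham desipramine replicate 2, with the nearest at 31.9 CPM. Cacna1a was at 227 CPM in SNI desipramine replicate 3, with the nearest at 241 CPM. The peripheral immune cell score was -1.07 in SNI desipramine replicate 4, with the nearest at -0.25.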

How the results depend on the processing

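The 25 genes that passed became 325 with DESeq2 (164 higher, 161 lower), 248 with neuron marker scores as covariates (115 higher, 133 lower), 104 in a fit of all 30 libraries (52 higher, 52 lower), 95 with no term for library set (51 higher, 44 lower), 44 at a mean CPM of at least 1 (27 higher, 17 lower), 41 with no term for surgery (25 higher, 16 lower), 36 without SNI desipramine replicates 2 and 3 (20 higher, 16 lower), and 16 in replicates 1 to 4 (12 higher, 4 lower). They were 27 under RLE or upper quartile scaling, 24 with limma-voom and 20 with no filter. Without 1 library at a time there were 16 to 82 genes, 12 to 46 higher and 3 to 36 lower. The difference between surgeries gave 0 genes, 550 with DESeq2, and 0 to 3159 without 1 library. Against saline, tianeptine gave 0 genes and 1 with DESeq2, and desipramine gave 7, 132 with DESeq2 and 0 in replicates 1 to 4. The cause of these shifts was not tested. Ciart, Nr1d2, Dbp, Ddit4, Calr, Kdr and Cysltr2 passed in all 33 alternatives, and no passing gene named here changed sign in any of them.

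Replicate numbers did not pair the libraries: over 8 pairs the correlation of same-numbered libraries ran from -0.15 to 0.14, and 1 of 8 correlated best with its own number. With a replicate block in place of library set, 7 genes passed (4 higher, 3 lower), all among the 25.

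Depth limits low genes most: Cysltr2, Slc52a3 and Rbm3os rest on a few CPM. P values measure the spread between mice within these sets, and an effect of library set on desipramine cannot be estimated, since the second set holds none of its libraries.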
